A study of Mus musculus with 25 samples.

Results

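Sciatic nerve is sealed from the blood in separate places, the perineurium around each fascicle and the endothelium of the vessels inside it, and the Schwann cells hold the layers of their own myelin sheath together with further junctions. The 9 junction genes described here, Cldn1, Cldn5, Cldn12, Cldn19, Ocln, Tjp1, F11r, Cdh5 and Cdh1, were taken by name from a list of barrier and Schwann cell genes and found through their Ensembl identifiers among the 56956 genes of the count table. This list was chosen with earlier results of these data known. All 9 genes passed the filter on low counts, as did 13993 genes in all. In the annotation 7 of the 9 overlap a gene on the opposite strand and Tjp1 also overlaps genes on its own strand, and since the strand setting of the counting is not given, reads of such pairs may not be separated. The question was how genes of the blood-nerve barrier and of Schwann cells stood in 2 mouse models of Charcot-Marie-Tooth disease type 1A. This demyelinating neuropathy is caused by an extra copy of the gene for peripheral myelin protein 22 (PMP22). Cldn19 and Cdh1 are called the Schwann cell genes here, and Cldn12 is assigned to neither side.

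RNA of whole sciatic nerve was sequenced in 25 libraries, with 5 groups of mice and 1 library per group at each age. The ages were 3, 5, 7 and 9 weeks and, as the oldest, 12 weeks. C3 mice (B6.Cg-Tg(PMP22)C3Fbas/J, on C57BL/6J) carry 5 additional copies of human PMP22 and C22 mice (Tg(PMP22)C22Clh, on FVB/NRJ) carry 10, and each model has wild-type controls of its own strain, WT-C3 and WT-C22. In the fifth group, labelled C3-PMP22 c-JunP0Cre and written C3-cJunKO in the plots, C3 mice also lack the transcription factor c-Jun in Schwann cells, through a Cre recombinase under the promoter of the Schwann cell gene P0. Its strain is not in the label, it has no control without the transgene, and its controls here are C3 and WT-C3. All mice were untreated. Each library came from the pooled nerves of 4 to 5 animals of both sexes, so that no group has a second pool at any age. The libraries of the 5 ages stood in for replicates of a group, so that an SD or standard error (SE) includes both the course with age and the differences between pools. Copy number and strain change together between C3 and C22, and their effects on a difference between the models cannot be told apart.

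Depth on genes ran from 2140142 counts in the C3 library of 9 weeks, with 9001002 in the next lowest, to 49072746 (median 24663235). Levels are CPM, the counts of a gene relative to the total of its library, scaled by the TMM factors of edgeR over all libraries, and differences between groups are log2 fold changes from the quasi-likelihood test of edgeR, with adjusted p values over the 13993 genes and a threshold of 0.05. The labels were checked first. The human gene of the transgene locus with the most counts, ENSG00000109099, was at 12623 ± 1608, 11431 ± 3064 and 11846 ± 1507 CPM (SD, n = 5) in C3, C3-PMP22 c-JunP0Cre and C22, and at 3.15 ± 2.14 and 0.820 ± 1.45 in WT-C3 and WT-C22. This gene separates transgenic from wild-type libraries but not C3 from C22, whose ranges were 10106 to 13936 and 9762 to 13903 CPM. Jun was at 29.2 ± 2.44 CPM in C3-PMP22 c-JunP0Cre, 110.1 ± 11.6 in C3 and 58.5 ± 8.45 in WT-C3, without overlap between these groups. Mouse Pmp22 was at 23242 ± 4548, 10425 ± 1349 and 9333 ± 2057 CPM in WT-C3, C3 and C3-PMP22 c-JunP0Cre, and at 22931 ± 7459 in WT-C22 and 4313 ± 411 in C22. The markers of the tissue were present, with summed levels of 10 myelinating Schwann cell genes at 60761 to 104408 CPM in WT-C3, of 8 perineurial genes at 586 to 932 and of 12 endothelial genes at 809.6 to 974. Of 6 epithelial genes, whose cells also make Cldn1, Ocln and Cdh1, the summed level was 1.90 to 3.32 CPM in WT-C3 and 2.18 to 3.93 in C22, and the keratins Krt5 and Krt14 had at most 3 counts in every library.

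A tight junction is built from strands of claudins, tetraspan membrane proteins that seal the gap between neighbouring cells, together with occludin and immunoglobulin-family adhesion molecules, all anchored to the cytoskeleton by scaffolds such as ZO-1. Adherens junctions lie beside them and are built from cadherins. Endothelial and perineurial cells use these junctions as a barrier, whereas a Schwann cell joins turns of its own membrane with them at the mesaxons, the paranodal loops and the Schmidt-Lanterman incisures. PMP22 belongs to the same superfamily of tetraspan proteins as the claudins.

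The sequences in front of 3 of these genes are shown because Cldn1 and Ocln had the most alike levels across the libraries, while Cldn19 did not follow them. The RefSeq table of promoters (GRCm38.p6) matched 7 of the 9 genes, Cdh5 and Cdh1 not among them, and where it gave several start sites that nearest the canonical start of GENCODE M39 was taken. Printed are the 250 bases before the start site, 5′ to 3′ on the strand of the gene, with matches to 6 motifs in capitals.
Cldn1, chr16:26371840-26372089, minus strand: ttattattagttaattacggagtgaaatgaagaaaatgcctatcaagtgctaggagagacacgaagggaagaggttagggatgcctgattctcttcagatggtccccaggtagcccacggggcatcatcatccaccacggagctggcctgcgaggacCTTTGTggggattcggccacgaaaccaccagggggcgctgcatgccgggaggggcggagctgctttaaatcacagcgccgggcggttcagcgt
Ocln, chr13:100552719-100552968, minus strand: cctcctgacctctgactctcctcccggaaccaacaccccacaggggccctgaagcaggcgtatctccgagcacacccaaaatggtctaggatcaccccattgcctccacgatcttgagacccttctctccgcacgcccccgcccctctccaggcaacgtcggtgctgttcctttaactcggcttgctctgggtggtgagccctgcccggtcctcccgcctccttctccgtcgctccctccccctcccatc
Cldn19, chr4:119255191-119255440, plus strand: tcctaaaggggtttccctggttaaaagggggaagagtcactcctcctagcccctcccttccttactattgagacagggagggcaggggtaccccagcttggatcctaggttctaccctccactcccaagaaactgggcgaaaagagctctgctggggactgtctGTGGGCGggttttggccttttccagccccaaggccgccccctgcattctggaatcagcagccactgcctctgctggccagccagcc
The motifs, searched on both strands, were TGANTCA of AP-1 (the dimer that c-Jun forms), ACAAAG and ACAATG of SOX factors, GTGGGCG of EGR factors, CAGGTG as an E-box and GGAATG of TEAD factors, none of which overlapped another in these sequences. In front of Cldn1 the only match was 1 to ACAAAG, on the opposite strand 93 bases before the start site, a motif held by 16.5% of all 32851 promoters of the table. Cldn19 had 1 match to GTGGGCG, 86 bases before the start site, found in 7.02% of promoters. F11r had 1 match each to TGANTCA (6.75% of promoters), GTGGGCG and CAGGTG (17.2%). The windows of Cldn5, Cldn12, Ocln and Tjp1 held none of these letters, and ACAATG (10.7%) and GGAATG (12.6%) were found in none of the 7.

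Per kilobase of exon, the Schwann cell gene Cldn19 had by far the highest level of the 9 in every group. Its group means ran from 219.8 to 301 CPM per kb. Below it came Cdh1 (50.2 to 78.8), Cldn5 (40.0 to 59.5) and Cldn1 (28.9 to 54.1), with Cldn5 the next after Cldn19 in WT-C3, C3 and C3-PMP22 c-JunP0Cre and Cdh1 in WT-C22 and C22. Neighbours among these 3 genes overlapped in their ranges over the 5 libraries in each group but C22. Tjp1 (25.1 to 40.2) and Cdh5 (22.1 to 35.2) followed and overlapped in every group, and then came F11r (12.4 to 22.1). Cldn12 (2.51 to 5.16) and Ocln (0.520 to 1.2) were the lowest, and neither overlapped with a gene next to it in any group. The exon length is that of all annotated exons of a gene, so a gene with rarely used exons comes out too low on this scale.

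**Figure D1:**
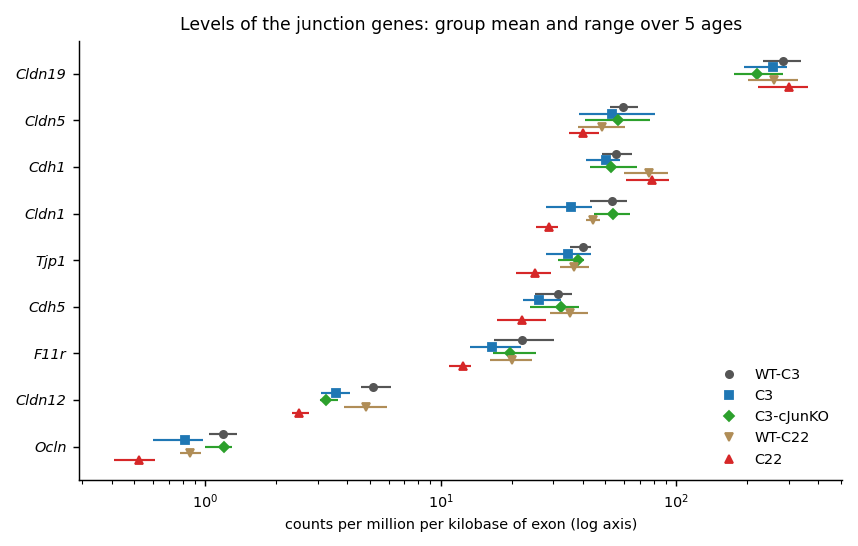
Level of each junction gene in CPM per kilobase of exon on a log axis, with the mean (marker) and the range (line) over the 5 ages of each group. Cldn19 lay between 177 and 361 and Ocln between 0.408 and 1.36.

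Cldn1, Cldn12 and Ocln were lower in both models, Tjp1, F11r and Cdh5 were also lower in C22, and Cldn5, Cldn19 and Cdh1 passed the test in neither. Of the 9 genes, 3 were lower and none higher in C3, where 23.9% of all genes tested were called and 11.4% were called lower. In C22, 6 were lower and none higher, where 42.4% of all genes were called and 20.5% were called lower. These 6 did not overlap between C22 and WT-C22, and 2 of the 3 did not overlap between C3 and WT-C3. Over all genes tested, 30.6% had no overlap in the C22 comparison and 17.5% in that of C3. Without the shallow C3 library of 9 weeks, Cldn1, Cldn12 and Ocln were still called lower in C3. The median log2 change over all 9 was -0.25 in C3 and -0.62 in C22, beside 0.001 and 0.0046 over all genes. With library size as the only scaling, in place of TMM, 75.8% of all called genes were higher in C22, against 51.7% with TMM, and 71.4% against 52.1% in C3. That scaling moved the median of all genes to 0.17 in C22, and the same number of the 9 genes, 3 and 6, was called lower under it. None of the 9 passed in a test of the C22 change minus the C3 change, in which 12.1% of all genes were called. In that test 3 genes had an unadjusted p under 0.05, Cldn12, Tjp1 and Cdh5, each with the larger fall in C22. The difference was -0.36 (95% interval -0.70 to -0.025, adjusted p = 0.169) for Tjp1 and -0.44 (95% interval -0.84 to -0.045, adjusted p = 0.151) for Cdh5. In RNA of whole nerve, fewer cells of a type and less RNA per cell cannot be told apart, and p values here measure the spread between pools of different ages. The study estimated cell type shares from these RNA data and reported no major shift between each model and its wild type. That estimate was not repeated here.

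Among the claudins listed, Cldn1 and Cldn12 were lower in both models. Which cells of the nerve express Cldn12 was not tested, so its fall is not assigned to the barrier. In deviations of libraries from their group means, Cldn12 ran with Cldn19 (r = 0.55) and Cdh1 (0.37). It ran against Cdh5 (-0.54), F11r (-0.61), Cldn5 (-0.35), Tjp1 (-0.28) and Cldn1 (-0.20), and was unrelated to Ocln (0.004). Cldn1 (ENSMUSG00000022512, chromosome 16, 26175392 to 26190596, minus strand, GRCm39), the main claudin of perineurial cells, was at 208, 239, 262, 299 and 279 CPM in WT-C3 and at 213, 153, 179.5, 136 and 179 in C3 from 3 to 12 weeks. It was at 202, 201, 229.6, 222 and 216 in WT-C22 and at 139, 153, 148, 123 and 137 in C22. C3 and WT-C3 met only at 3 weeks, where C3 was the slightly higher of the pair, and from 5 weeks each C3 library was below every WT-C3 library. All C22 libraries were below all WT-C22 libraries. Fitted log2 fold changes were -0.58 (SE 0.13, adjusted p = 0.00952) in C3 and -0.62 (SE 0.074, adjusted p = 5.91e-05) in C22. The change in C22 minus that in C3 was -0.063 (95% interval -0.38 to 0.25, adjusted p = 0.872).

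Cldn12 (ENSMUSG00000046798, chromosome 5, 5539537 to 5564995, minus strand), a claudin that lacks the PDZ-binding tail of most of its family, had the largest fall of the 9 genes in C22. WT-C22 libraries held 60.2, 59.3, 40.0, 45.9 and 39.5 CPM from 3 to 12 weeks and C22 libraries 23.9, 26.5, 24.6, 28.1 and 25.1. WT-C3 held 63.0, 50.7, 48.4, 54.8 and 46.7 and C3 42.1, 39.1, 37.5, 31.8 and 32.9. Neither model overlapped with its controls at any age. The log2 fold change was -0.94 (SE 0.12, adjusted p = 1.19e-04) in C22 and -0.51 (SE 0.10, adjusted p = 0.0047) in C3, and the difference between them, -0.44 (95% interval -0.80 to -0.088, adjusted p = 0.101), did not pass the test. Without the WT-C22 library of 12 weeks that difference had an adjusted p of 0.0415.

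Cldn5 (ENSMUSG00000041378, chromosome 16, 18595597 to 18597012, plus strand), the claudin of the endothelium, did not pass the test in either model. Its levels were 77.2, 77.9, 74.2, 96.9 and 94.8 CPM in WT-C3 and 54.7, 65.4, 64.3, 114 and 77.4 in C3. They were 81.4, 54.8, 54.3, 67.0 and 85.9 in WT-C22 and 49.5, 66.5, 52.7, 55.8 and 58.5 in C22. The groups overlapped in both comparisons, and the C3 library of 9 weeks, the shallowest of all, was the highest of its group. Its log2 fold change was -0.20 (95% interval -0.56 to 0.16, adjusted p = 0.416) in C3 and -0.29 (95% interval -0.59 to 0.01, adjusted p = 0.111) in C22. Without the C3 library of 9 weeks the value in C3 was -0.36 (adjusted p = 0.0476).

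Occludin, the adhesion molecule JAM-A and the scaffold ZO-1 complete the tight junction. Ocln (ENSMUSG00000021638, chromosome 13, 100630334 to 100689535, minus strand), which encodes occludin, was at 9.76, 10.5, 10.4, 12.4 and 12.8 CPM in WT-C3 and 9.14, 7.71, 8.01, 5.60 and 7.83 in C3, and at 8.04, 7.33, 7.94, 8.08 and 9.03 in WT-C22 and 4.32, 5.73, 3.83, 5.66 and 4.87 in C22. The model was below its controls at each age without overlap, at a depth of 12 to 399 counts per library. This was a log2 fold change of -0.50 (SE 0.13, adjusted p = 0.0193) in C3 and -0.74 (SE 0.13, adjusted p = 7.73e-04) in C22. In C3 the call was lost without the library of 5 weeks (adjusted p = 0.0505).

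Tjp1 (ENSMUSG00000030516, chromosome 7, 64945898 to 65177529, minus strand), which encodes ZO-1, ran from 254 to 337 CPM in WT-C22 and from 165 to 232 in C22, again without overlap. It ran from 281 to 344 in WT-C3 and from 222 to 343 in C3, with overlap. Its log2 fold change was -0.55 (SE 0.11, adjusted p = 0.00153) in C22 and -0.21 (95% interval -0.47 to 0.045, adjusted p = 0.215) in C3. F11r (ENSMUSG00000038235, chromosome 1, 171265092 to 171292958, plus strand), which encodes JAM-A, was at 56.1, 62.7, 71.7, 73.3 and 84.4 in WT-C22 against 37.5, 45.6, 39.3, 46.5 and 46.0 in C22, and at 58.0, 67.9, 66.9, 84.3 and 105 in WT-C3 against 47.0, 46.1, 53.4, 75.7 and 61.9 in C3. It was lower than its controls at 5 of 5 ages in each model, but the groups overlapped in C3. The fitted change of F11r was -0.70 (SE 0.11, adjusted p = 4.36e-04) in C22 and -0.45 (95% interval -0.83 to -0.082, adjusted p = 0.0734) in C3 (log2). In C3 the adjusted p of F11r was 0.0353 without the library of 9 weeks and 0.0401 without the WT-C3 library of 3 weeks. Tjp1 had 0.0428 without the C3 library of 12 weeks.

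Cdh5 (ENSMUSG00000031871, chromosome 8, 104828231 to 104871143, plus strand) encodes VE-cadherin, the adherens junction cadherin of the endothelium. It was at 138, 128, 161, 161 and 184 CPM in WT-C22 and at 86.0, 76.2, 100.4, 122 and 99.3 in C22, and at 126, 139.96, 153, 110.02 and 157 in WT-C3 and 98.2, 109, 119, 106 and 142 in C3. Every C22 library was below every WT-C22 library, and C3 was below WT-C3 at 5 of 5 ages with overlap between the groups. The log2 fold change was -0.68 (SE 0.13, adjusted p = 0.00157) in C22 and -0.25 (95% interval -0.53 to 0.019, adjusted p = 0.162) in C3. Without the C3 library of 12 weeks the adjusted p in C3 was 0.0426. Of the endothelial pair, Cdh5 thus passed in C22 and Cldn5 did not, and whether they differ from each other was not tested.

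The Schwann cell genes passed the test in neither model. Cldn19 (ENSMUSG00000066058, chromosome 4, 119112591 to 119119635, plus strand), the claudin of the Schwann cell's own junctions, was at 1409, 1263, 976, 1040.1 and 864 CPM in WT-C22 and at 1547, 1506, 1206, 953 and 1235 in C22 from 3 to 12 weeks. It was at 1443, 1322, 1155, 1174 and 995 in WT-C3 and 1261, 1147, 1062, 1232 and 827 in C3. C22 was the higher at 4 of 5 ages and C3 the lower at 4 of 5, with overlap in both. The log2 fold change was 0.21 (95% interval -0.15 to 0.57, adjusted p = 0.321) in C22 and -0.14 (95% interval -0.43 to 0.14, adjusted p = 0.446) in C3. With the scaling by library size alone, the value in C22 was 0.38 (adjusted p = 0.0468).

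Cdh1 (ENSMUSG00000000303, chromosome 8, 107329941 to 107396880, plus strand), which encodes E-cadherin of the autotypic adherens junctions of non-compact myelin, was at 379.9, 429, 353, 331 and 279 CPM in WT-C22 and at 369.9, 430.4, 378, 284 and 365 in C22. In WT-C3 it was at 261, 299.5, 249.8, 255 and 225 and in C3 at 214, 266, 226, 265 and 191. Models and controls overlapped in both strains. Its log2 fold change was 0.04 (95% interval -0.24 to 0.32, adjusted p = 0.825) in C22 and -0.16 (95% interval -0.38 to 0.068, adjusted p = 0.295) in C3. Both intervals lie within a 1.5-fold change in either direction.

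**Figure D2:**
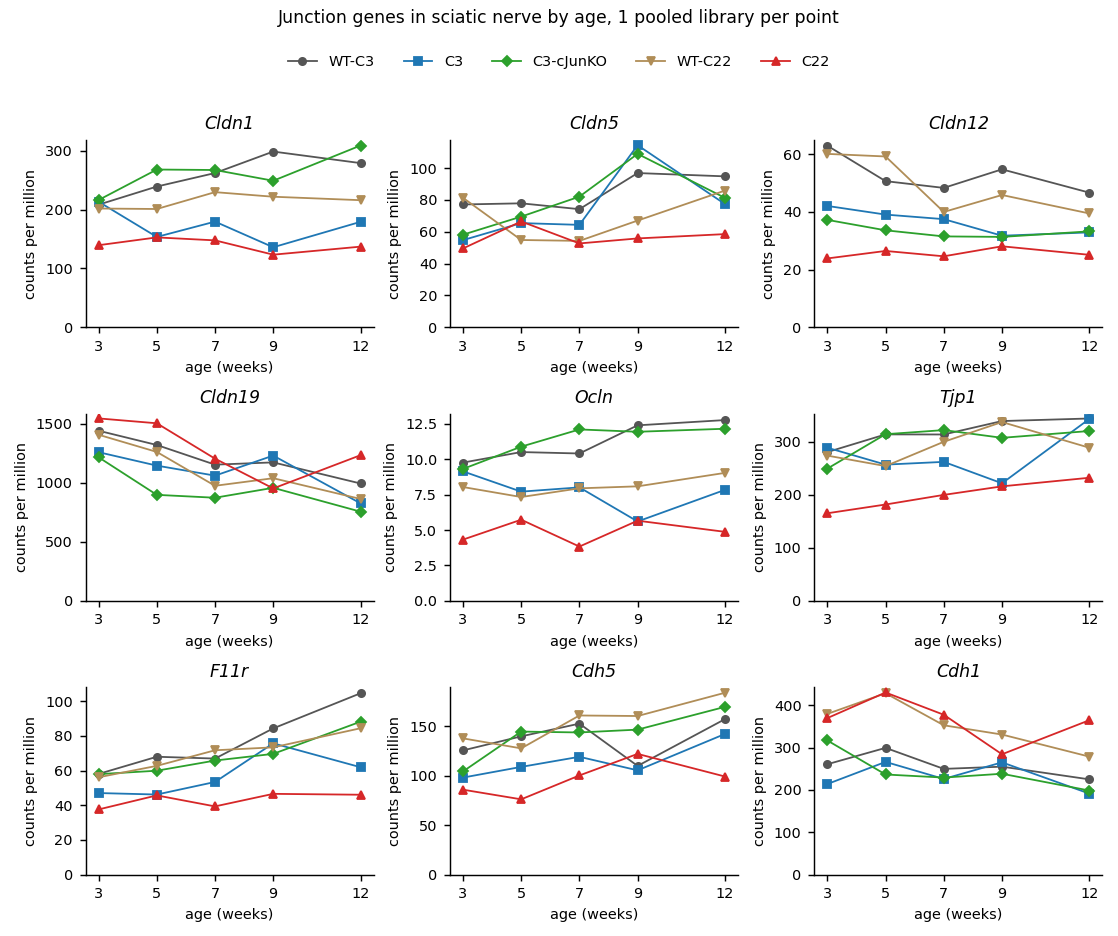
Level of each of the 9 junction genes in CPM against age in weeks, with 1 pooled library per point and 1 line per group. C22 (red triangles) lay below WT-C22 (brown triangles) at each age for Cldn1, Cldn12, Ocln, Tjp1, F11r and Cdh5, and the lines of these groups crossed for Cldn5, Cldn19 and Cdh1.

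Perineurial markers were lower in both models, and endothelial and pericyte markers mainly in C22. For comparison, 11.4% of all genes were called lower in C3 and 20.5% in C22. Called higher were 1743 of the 13993 genes in C3 and 3070 in C22. The marker lists were chosen with earlier results of these data known, so their counts are a description beside these values of all genes. Of 8 perineurial markers other than the junction genes (Slc2a1, Lypd2, Msln, Krt19, Ntn4, Moxd1, Perp and Tenm2), 6 were lower in C3 and 5 in C22, and none was higher. Their summed level was 586 to 932 CPM in WT-C3 and 446 to 632 in C3, and 471 to 812 in WT-C22 and 319.5 to 404 in C22, where the groups did not overlap. Of 12 endothelial markers, 2 were lower in C3 and 7 in C22, with summed levels of 809.6 to 974, 555 to 954, 811 to 1083 and 559 to 925 in WT-C3, C3, WT-C22 and C22, with overlap in both pairs. Of 6 pericyte markers, 2 were lower and 1 higher in C3, and 5 were lower in C22. Of 6 fibroblast markers none passed in C3 and 1 was lower in C22, and of 6 macrophage markers none passed in C3 and 1 passed in each direction in C22. No perineurial or endothelial marker was at or under 3 counts in a whole group. Of 10 myelinating Schwann cell markers, 2 were higher and 3 lower in C3 and 2 higher and 5 lower in C22. Their summed level was 60761 to 104408 CPM in WT-C3 and 40807 to 60467 in C3, without overlap. In WT-C22 it was 48419.5 to 98842 and in C22 26611 to 40122, again without overlap. Of 5 tested markers of repair Schwann cells, 5 were higher in C3, and 4 were higher and 1 lower in C22. No marker of lymphatic endothelium, skeletal muscle, adipocytes or blood passed in either model, and 1 of 2 tested platelet markers was lower in each. The summed level of 5 skeletal muscle markers was 11.7 to 3289 CPM in WT-C3 and 139 to 4997 in C3. It was 14.7 to 8392 in WT-C22 and 48.9 to 2112 in C22. With such a spread, the lack of a call does not show equal muscle content. The part of these markers in the results on the junction genes was not tested.

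**Figure D3:**
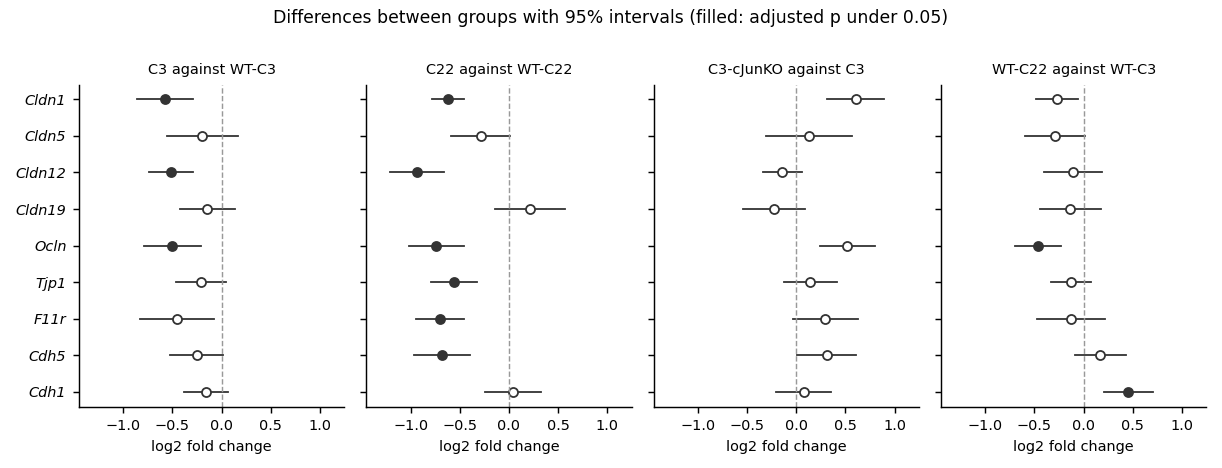
Log2 fold change of each junction gene with its 95% interval in 4 comparisons, with filled points for an adjusted p under 0.05. The filled points are Cldn1, Cldn12 and Ocln in C3, Cldn1, Cldn12, Ocln, Tjp1, F11r and Cdh5 in C22, none in C3-cJunKO against C3, and Ocln and Cdh1 between the wild-type groups.

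The knockout of c-Jun addressed how the junction genes of C3 stand when this transcription factor is missing from Schwann cells. In C3-PMP22 c-JunP0Cre, Cldn1 was at 216, 268, 267, 249 and 309 CPM, above C3 at 5 of 5 ages and without overlap with it. Ocln was at 9.31, 10.9, 12.1, 11.9 and 12.2 CPM and likewise above every C3 library. These were the 2 of the 9 genes without overlap, which 2.27% of all genes showed. The log2 fold change against C3 was 0.61 (95% interval 0.32 to 0.90, adjusted p = 0.0896) for Cldn1 and 0.52 (95% interval 0.24 to 0.80, adjusted p = 0.158) for Ocln, so that neither passed the test over all genes. Same-age libraries of C3 and C3-PMP22 c-JunP0Cre are separate pools. Across genes, their deviations from the group means had correlations of 0.103 to 0.630 at the 5 ages. With age as a block, Cldn1 was higher in C3-PMP22 c-JunP0Cre by 0.61 (SE 0.13, adjusted p = 0.0432) and Ocln had an adjusted p of 0.13, in a fit that called 273 genes in place of 77. Leaving out the 3-week library brought Cldn1 to 0.0456 on the side of C3-PMP22 c-JunP0Cre and to 0.0381 on that of C3.

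With DESeq2, the likelihood ratio test or a fit of all 25 libraries, Cldn1 and Ocln were both called higher, with adjusted p values of 0.00137 to 0.0048 for Cldn1 and 0.0199 to 0.033 for Ocln. Of the 9 genes none was called by the main test, where 0.55% of all genes were called, and 3 had an unadjusted p under 0.05, Cldn1, Ocln and Cdh5. Cdh5, at 104 to 169.8 CPM, was above C3 at 5 of 5 ages, with a log2 fold change of 0.31 (95% interval 0.0096 to 0.61, adjusted p = 0.619). Cldn19, at 1218, 899, 875, 959 and 756 CPM, was below C3 at 5 of 5 ages, with -0.23 (95% interval -0.54 to 0.084, adjusted p = 0.794). Cldn12 stood lower rather than higher, with -0.14 (95% interval -0.34 to 0.054, adjusted p = 0.794). The remaining genes had log2 fold changes of 0.076 for Cdh1, 0.13 for Cldn5, 0.14 for Tjp1 and 0.30 for F11r, none called. No perineurial or endothelial marker passed in this comparison, and their summed levels in C3-PMP22 c-JunP0Cre were 482 to 711 and 684 to 1018 CPM. Of 4 lymphatic endothelial markers 1 was lower. The summed level of 5 skeletal muscle markers varied from 5.03 to 811 CPM in C3-PMP22 c-JunP0Cre and from 139 to 4997 in C3, and none of them was called.

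WT-C3 is also the control of C3, so the values that follow share libraries with those of C3. Against WT-C3, Cldn12 in C3-PMP22 c-JunP0Cre was lower, at 37.3, 33.6, 31.5, 31.3 and 33.3 CPM and a log2 fold change of -0.66 (SE 0.091, adjusted p = 3.06e-04), without overlap. It was the only one of the 9 genes called, where 21.5% of all genes were. Cldn1 and Ocln stood close to WT-C3, with log2 fold changes of 0.025 (95% interval -0.23 to 0.28, adjusted p = 0.905) and 0.013 (95% interval -0.23 to 0.26, adjusted p = 0.949). Cldn19 was lower than in WT-C3 at 5 of 5 ages but did not pass, with -0.37 (95% interval -0.68 to -0.067, adjusted p = 0.0787). It had an adjusted p of 0.014 without the C3-PMP22 c-JunP0Cre library of 3 weeks and of 0.0273 with DESeq2. Of 8 perineurial markers 3 were lower in this comparison, and of 12 endothelial markers none was called. The other 5 genes had log2 fold changes between -0.16 and 0.05.

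Between the wild-type groups of the 2 strains, 2 of the 9 genes were called, where 21.7% of all genes were. Ocln was lower in WT-C22 than in WT-C3, with a log2 fold change of -0.46 (SE 0.11, adjusted p = 0.00947) and without overlap. Cdh1 was higher, by 0.46 (SE 0.11, adjusted p = 0.0137) and at 5 of 5 ages, with overlap, since the lowest WT-C22 library had 279 CPM and the highest WT-C3 library 299.5. Of the 8 perineurial markers, 4 were lower and 1 higher in WT-C22 than in WT-C3. Of 4 adipocyte markers 3 were higher, with summed levels of 569 to 1872 CPM in WT-C22 and 391 to 856 in WT-C3. Of 6 pericyte markers 2 were higher, and of 12 endothelial markers 1 was called in each direction. The part of these markers in the values of Ocln and Cdh1 was not tested. Cldn1, at -0.27 (95% interval -0.48 to -0.052, adjusted p = 0.0754), was lower at 5 of 5 ages without passing, and had an adjusted p of 0.0193 without the WT-C3 library of 3 weeks. The levels of Ocln therefore ran, from the lowest group mean, C22 (4.88 ± 0.827 CPM, SD, n = 5), C3 (7.66 ± 1.28), WT-C22 (8.09 ± 0.611), WT-C3 (11.2 ± 1.33) and C3-PMP22 c-JunP0Cre (11.3 ± 1.21), where neighbours overlapped except WT-C22 and WT-C3. Those of Cldn1 ran C22 (139.98 ± 11.3), C3 (172 ± 29.4), WT-C22 (214 ± 12.5), WT-C3 (257 ± 35.1) and C3-PMP22 c-JunP0Cre (262 ± 33.7), in the same order of groups and with overlap between all neighbours.

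F11r rose with age by a linear slope, though not by a spline. In a spline of age, fitted within each group and tested with 5 residual degrees of freedom, none of the 9 genes passed, where 0.693% of genes passed in WT-C3, 2.27% in C3, 3.38% in C3-PMP22 c-JunP0Cre, 2.86% in WT-C22 and 0.752% in C22. With a linear slope, F11r rose in 4 of the 5 groups. Its log2 level changed by 0.093 per week (SE 0.017, adjusted p = 0.00435) in WT-C3, 0.063 per week (SE 0.017, adjusted p = 0.0346) in C3, 0.071 per week (SE 0.017, adjusted p = 0.0145) in C3-PMP22 c-JunP0Cre and 0.064 per week (SE 0.017, adjusted p = 0.0238) in WT-C22. In C22 the slope was 0.03 per week (SE 0.017, adjusted p = 0.435). Cldn12 and Cldn19 fell in WT-C22, with slopes of -0.07 per week (SE 0.018, adjusted p = 0.0198) and -0.075 per week (SE 0.021, adjusted p = 0.0333). The linear slope passed for 2.62% of genes in WT-C3, 5.96% in C3, 5.94% in C3-PMP22 c-JunP0Cre, 7.77% in WT-C22 and 0.784% in C22.

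Each of these slopes was lost when 1 of 2 to 4 libraries of its group was left out, the youngest library among them in every case. F11r had an adjusted p of 0.185 and 0.196 when the WT-C3 pool of 3 or of 12 weeks was left out, 0.253 and 0.0936 without the C3 library of 3 or 5 weeks, and 0.0858 and 0.37 without the C3-PMP22 c-JunP0Cre library of 3 or 12 weeks. In WT-C22 it had 0.195, 0.0569 and 0.258 without the library of 3, 5 or 12 weeks. Cldn12 in WT-C22 had 0.153, 0.0583 and 0.187 without the same libraries. Cldn19 had 0.252, 0.0931, 0.0588 and 0.322 without the library of 3, 5, 9 or 12 weeks. The slopes of Cldn19 and Cdh1 were below 0 in all 5 groups, from -0.075 to -0.05 per week for Cldn19 and from -0.059 to -0.019 for Cdh1, and those of Cdh5, Tjp1, Cldn5 and F11r were above 0 in all 5. For none of the 9 genes did a test find a different time course in a model and its comparison group, where 0.0261% of genes differed between C3 and WT-C3, 0.0523% between C22 and WT-C22 and 0.0588% between C3-PMP22 c-JunP0Cre and C3.

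Deviations of the libraries from their group means did not divide the 9 genes cleanly into barrier and Schwann cell genes. Cldn19 and Cdh1 deviated together (r = 0.83 over 25 libraries), and both ran against Cdh5 (r = -0.88 and -0.80) and Tjp1 (-0.73 and -0.68). Cldn1 and Ocln deviated together with r = 0.60 and each with Tjp1, with 0.55 and 0.56. Cldn12 stood on the side of the Schwann cell genes, with 0.55 to Cldn19 and 0.37 to Cdh1, and ran against Cdh5 (-0.54), F11r (-0.61) and Cldn5 (-0.35). Cldn5 was only weakly against Cldn19 (-0.18) and Cdh1 (-0.19). These correlations are a description, since the libraries of a group share its age series and the levels of a library share its total.

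**Figure D4:**
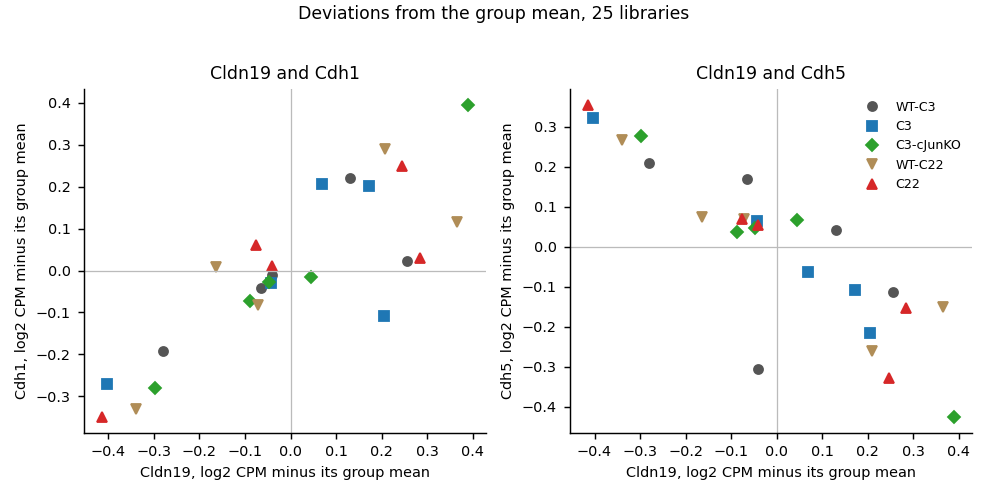
Deviation of each library from its group mean in log2 CPM, for Cldn19 against Cdh1 (left) and against Cdh5 (right), with 1 point per library. The points rise on the left (r = 0.83) and fall on the right (r = -0.88).

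Over the 25 libraries, the 5 genes whose log2 levels were most like those of Cldn1 by Pearson's r were Ocln (0.91), Gja1 (0.90), Acer3 (0.90), Flrt2 (0.90) and Cert1 (0.89). Ocln, itself one of the 9 genes, thus came first of 13993, and Gja1, the gap junction gene of connexin 43, was next. For Cldn5 the nearest were Znhit3 (0.82), Gm13889 (0.82), Gfod2 (0.82), Lsr (0.81) and Gm57383 (0.81), with Lsr, the angulin of tricellular tight junctions, among them. For Cldn19 they were Pllp (0.93), Fkbp1a (0.84), Rnf128 (0.83), Lig4 (0.82) and Csnk1g3 (0.80), led by Pllp, which encodes the myelin protein plasmolipin. For Cdh1 they were Lonrf2 (0.91), Samd8 (0.89), Slpi (0.89), Matn4 (0.88) and Mppe1 (0.88). These values hold the differences between groups as well as the spread within them.

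The other genes of these junctions were counted from lists. Of 19 other claudins, 4 were expressed highly enough to be tested, and of these 2 were lower in C3 and 3 in C22. Of 24 other tight junction genes 22 were tested, with 2 higher and 3 lower in C3 and 2 higher and 12 lower in C22. Of 12 other cadherins 9 were tested, with 3 higher and 2 lower in C3 and 4 higher and 3 lower in C22. Of 11 catenins and other adherens junction genes 9 were tested, with 1 lower in C3 and 2 higher and 5 lower in C22. The median log2 fold changes over the genes tested were -0.79, -0.14, 0.10 and -0.01 in C3 and -0.86, -0.45, 0.13 and -0.25 in C22, in the order of these lists. In C3-PMP22 c-JunP0Cre against C3 none of the genes of these lists was called. Over all genes 23.9% were called in C3 and 42.4% in C22, with 11.4% and 20.5% called lower.

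The largest changes among the junction genes examined lay outside the 9, in cadherins and tight junction genes, several of them low in at least 1 group. Cdh6, a type II cadherin, was at 5.99 ± 2.27 CPM (SD, n = 5) in WT-C3, 41.0 ± 11.4 in C3, 10.3 ± 3.91 in WT-C22 and 87.3 ± 12.8 in C22, a log2 fold change of 2.79 (SE 0.29, adjusted p = 1.01e-04) in C3 and 3.11 (SE 0.24, adjusted p = 1.96e-06) in C22. Cdh4, which encodes R-cadherin, was at 1.81 ± 0.476, 6.74 ± 0.487, 2.56 ± 1.24 and 12.7 ± 2.52, with 1.89 (SE 0.19, adjusted p = 7.66e-05) and 2.40 (SE 0.25, adjusted p = 2.27e-05). Cdh3, the P-cadherin gene, went the other way, from 14.3 ± 3.10 to 6.64 ± 2.16 and from 21.2 ± 6.01 to 1.02 ± 0.308 CPM, with -1.07 (SE 0.22, adjusted p = 0.00587) and -4.39 (SE 0.25, adjusted p = 1.99e-07). Cdh2, which encodes N-cadherin, fell by 0.83 and 0.97 on the log2 scale (adjusted p = 7.68e-05 and 4.44e-06). Whether these genes differ from Cdh1 was not tested. Cdh10, another type II cadherin, was higher, with 0.68 (SE 0.21, adjusted p = 0.0371) in C3 and 0.53 (SE 0.15, adjusted p = 0.0164) in C22, and in C3 its call was lost without any 1 of 7 libraries and without the filter on low counts. Cdh20, named after its values were seen, ran from 1.80 to 3.00 CPM in WT-C22 and from 11.9 to 19.9 in C22, without overlap. It ran from 0.477 to 1.64 in WT-C3 and from 1.24 to 2.80 in C3, with overlap.

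Among tight junction genes, Marveld3, a relative of occludin, rose from a level near the limit of detection, 0.141 ± 0.112 CPM in WT-C3 and 0.259 ± 0.178 in WT-C22, to 3.65 ± 1.12 in C3 and 12.6 ± 3.28 in C22. The control libraries held 0 to 4 and 2 to 14 counts. Ildr1, an angulin of tricellular junctions, fell from 2.51 ± 0.396 to 0.423 ± 0.271 in C3 and from 2.04 ± 0.507 to 0.0677 ± 0.0850 in C22, and the claudin Cldn14 from 10.1 ± 1.72 to 4.68 ± 1.40 and from 8.79 ± 1.24 to 0.103 ± 0.0757. In C22 these genes had 0 to 6 and 0 to 5 counts per library. Their fitted log2 fold changes, 4.57 (SE 0.43, adjusted p = 6.13e-05) and 5.63 (SE 0.35, adjusted p = 3.56e-07) for Marveld3, -2.25 (SE 0.28, adjusted p = 3.33e-04) and -4.83 (SE 0.47, adjusted p = 1.23e-05) for Ildr1 and -1.18 (SE 0.21, adjusted p = 0.0023) and -6.33 (SE 0.35, adjusted p = 1.66e-07) for Cldn14, depend on the prior count of the fit where a group is that low.

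Cldn22 was lower, with log2 fold changes of -1.0 (SE 0.23, adjusted p = 0.0103) in C3 and -1.08 (SE 0.17, adjusted p = 4.17e-04) in C22, but it lies inside Wwc2 on the other strand, and the strand setting of the counting is not given in the sources used here. The scaffolds Mpdz and Afdn were lower in both models, with -0.37 and -0.42 in C3 and -1.09 and -0.60 in C22, and the scaffold Magi1 was higher, with 0.45 and 0.46. Of the 3 connexins examined, Gja1 was lower, with -0.85 (SE 0.12, adjusted p = 6.90e-04) and -0.82 (SE 0.12, adjusted p = 3.03e-04), and Gjc3, which encodes the Schwann cell connexin 29, was higher, with 0.78 (SE 0.22, adjusted p = 0.0219) and 1.85 (SE 0.25, adjusted p = 1.45e-04). The third, Gjb1, which encodes connexin 32 of the Schwann cell and is named after its values were seen, was lower in C22, from 177 ± 35.7 to 119.9 ± 18.9 CPM, with -0.56 (SE 0.14, adjusted p = 0.00818), and was not called in C3, with 0.20 (SE 0.16, adjusted p = 0.386). Its change in C22 minus that in C3 was -0.79 (SE 0.23, adjusted p = 0.0291). Gjc3 lost its call in C3 when the WT-C3 pool of 7, 9 or 12 weeks was left out (adjusted p = 0.0538, 0.0591 and 0.0505). The 1 gene of the adherens list called in C3, Ctnnd1 for p120 catenin, is named after its values were seen. It was at 25.5 ± 4.18 CPM in WT-C3, 14.4 ± 2.88 in C3, 14.1 ± 1.18 in C3-PMP22 c-JunP0Cre, 13.9 ± 1.15 in WT-C22 and 13.6 ± 1.99 in C22, so that WT-C3 alone stood high, and another annotated gene, Gm28635, overlaps it on the same strand. Of the 14 genes called in both models and Ctnnd1, 15 in all, 10 overlap a gene on the opposite strand, Cldn14, Cdh4 and Cdh6 among them, and Cldn14, Mpdz and Ctnnd1 overlap one on their own strand, so that the doubt raised for Cldn22 holds for these too.

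**Figure D5:**
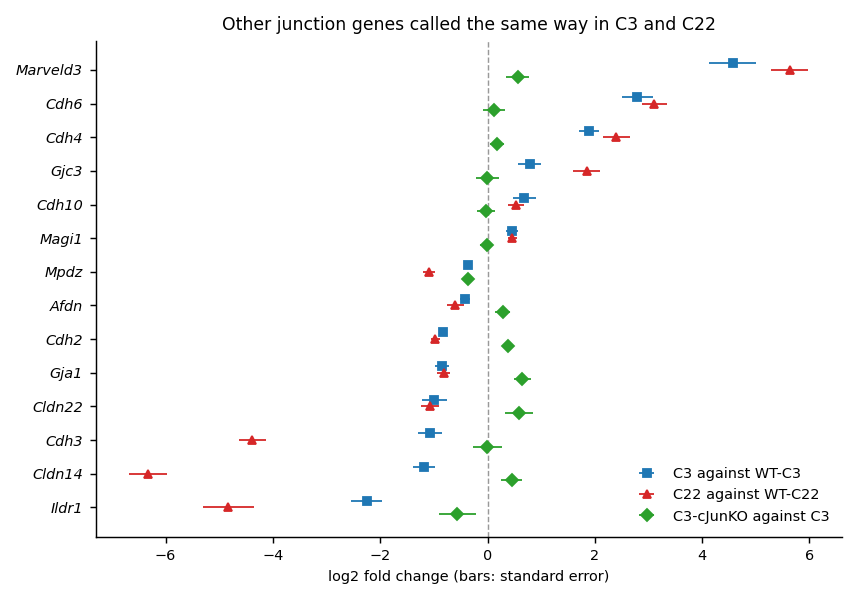
Log2 fold change with its SE of the 14 other junction genes called in the same direction in C3 and in C22, and of the same genes in C3-cJunKO against C3, where none was called. In C22 the values run from -6.33 for Cldn14 to 5.63 for Marveld3.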

How the data were processed

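Per the labels, RNA was selected for poly(A), made into libraries with a directional kit and sequenced on a NovaSeq6000, all in 1 batch. The submitters' processing notes name FastQC 0.11.9, cutadapt 2.10, STAR 2.7.5a, UMI-tools 1.1.1 and HTSeq 0.12.4, with the builds GRCm39 and GRCh38. Per the study's methods, fragments were aligned to the mouse genome with the human transgene locus added, deduplicated by UMI and counted per gene of Ensembl 110. The strand setting of the counting is not given in the sources used here. The table deposited by the authors holds raw fragment counts of 56956 genes, 15 of them human, and 5 HTSeq summary lines, which were left out (13.5 to 17.4% of fragments). Symbols came from GENCODE M39, which matched 56323 of 56941 mouse genes.

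Groups were compared in R 4.3.3 with edgeR 4.0.16 (limma 3.58.1), by the quasi-likelihood test with TMM factors among the libraries compared, the group as the only term, genes with log2 CPM above 1 in 25% of the libraries (7 of 25) and Benjamini-Hochberg adjustment at 0.05. Age was fitted in all 25 libraries as a natural spline with 3 degrees of freedom within group, or as a line, over 15298 genes kept by filterByExpr. Alternatives were DESeq2 1.42.0, the likelihood ratio test, other scalings and filters, all libraries in 1 fit, age as a replicate block and each library left out. The age numbers a library within its group. Same-age libraries were not paired in any main test, and age as a block was run as an alternative in every comparison. The correlation of their deviations was above a cut of 0.1 at each of the 5 ages for C3-PMP22 c-JunP0Cre and C3 alone. There the 5-week value, 0.103, lay close to the cut. Between the wild types the correlations ran from 0.0405 to 0.648. All these libraries are separate pools, and the cut does not establish that any are paired. Depth limits the precision of low genes, above all Ocln, in the C3 library of 9 weeks. Figures were drawn with matplotlib 3.10.9 in Python 3.11.15.

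The members and gene lists were chosen with earlier results of these data known. Named in addition are junction genes of the lists called in the same direction in both models, the 5 largest changes among those called in C3, C22 and C3-PMP22 c-JunP0Cre, the 5 genes most like Cldn1, Cldn5, Cldn19 and Cdh1, and the genes that check the labels.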

Additional observations from a re-analysis of the deposited data

Results flagged for a closer look

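Tjp1 was at 249.5 CPM in the C3-PMP22 c-JunP0Cre library of 3 weeks, while the other 4 libraries of this group lay between 308 and 322 CPM. The library was singled out because its gap to the next, divided by the range of the group, was 0.80, above the critical value of 0.71 for 5 libraries. This was the 1 such value among 45 sets of 5 libraries (9 genes in 5 groups), where chance gives about 5% of sets, and the library was also the youngest of its group.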

How the results depend on the processing

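In C22, 6 of the 9 genes were called lower under each of 18 alternatives, and Cldn19 was called higher beside them with library size only. Of 1062 values of the 9 genes under alternatives, 1008 kept their direction and side of the threshold, 2 were lost, 28 were gained and 24 changed direction, none of the last among called values. With age as a replicate block, 5 of the 9 genes were called in C3 against WT-C3 in place of 3. Between the wild-type groups, 4 were called in place of 2. In these fits 26.4% and 26.6% of all genes were called, in place of 23.9% and 21.7%. The block also gave 1 in place of 0 in C22 minus C3 and in C3-PMP22 c-JunP0Cre against C3. In C3-PMP22 c-JunP0Cre against WT-C3 it gave 2 in place of 1. Of all genes it called 14.7%, 1.95% and 24.0% in these comparisons, in place of 12.1%, 0.55% and 21.5%. Libraries of the same age are separate pools in every comparison. Outside C3-PMP22 c-JunP0Cre against C3, same-age correlations fell to -0.248 for C3 and -0.156 for C22. They fell to 0.037 for C3-PMP22 c-JunP0Cre against WT-C3 and to 0.0405 between the wild types.

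For C3-PMP22 c-JunP0Cre against C3, DESeq2, the likelihood ratio test and the fit of all 25 libraries gave 2 in place of 0, and for C3-PMP22 c-JunP0Cre against WT-C3 DESeq2 gave 2 in place of 1. The cause was not tested. Leaving out single libraries gave 2 to 5 genes in C3, 0 to 1 in C22 minus C3, 0 to 1 in C3-PMP22 c-JunP0Cre against C3, 1 to 2 in C3-PMP22 c-JunP0Cre against WT-C3 and 2 to 3 between the wild types. With no filter on low counts Ocln in C3 had an adjusted p of 0.056, and F11r in C3 had 0.0411 with DESeq2. For age, a spline with 2 degrees of freedom gave 1 gene in WT-C3, and the line gave 1 in WT-C3, C3 and C3-PMP22 c-JunP0Cre and 3 in WT-C22, all in place of 0. Leaving out single libraries gave 0 to 1 linear slopes in each of WT-C3, C3, C3-PMP22 c-JunP0Cre and C22 and 0 to 3 in WT-C22, where the 1 in C22 was Cldn19 without the library of 12 weeks. The count over all genes in C3-PMP22 c-JunP0Cre against C3 was 77, and it was 250 with DESeq2, 193 with the likelihood ratio test, 134 with no filter, 139 with all libraries in 1 fit and 273 with the block.

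With library size as the only scaling, the direction changed for Cldn1 in C22 minus C3 (0.0499) and for Cldn5 (0.017) and Tjp1 (0.015) in C3-PMP22 c-JunP0Cre against WT-C3. Leaving out single libraries changed it for uncalled values near 0. Cdh1 in C22 ran from -0.037 to 0.12, Cldn1 and Cldn5 in C22 minus C3 from -0.14 to 0.0288 and from -0.20 to 0.0563, and Cdh1 and Cldn5 in C3-PMP22 c-JunP0Cre against C3 from -0.026 to 0.14 and from -0.00474 to 0.29. Against WT-C3, C3-PMP22 c-JunP0Cre gave -0.0433 to 0.0863 for Cldn1, -0.21 to 0.0201 for Cldn5, -0.0326 to 0.072 for Ocln and -0.0246 to 0.14 for Cdh5, and F11r between the wild types ran from -0.22 to 0.0139. Afdn in C22 had an adjusted p of 0.0641 with library size only. With 1 pool per group and age, a change with age cannot be told apart from variation between pools.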
